A study of Gossypium hirsutum with 12 samples.

Results

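Upland cotton (Gossypium hirsutum) leaves of the cultivars Sicot 53 and Sicala 45 were compared under heat, at 42 °C by day, with the cultivar as the difference between the groups. The comparison uses 6 of the 12 Affymetrix Cotton arrays of the series, chosen by their titles: 3 arrays of Sicot 53 and 3 of Sicala 45, all at 42 °C. Every difference below is Sicot 53 minus Sicala 45. The plants of both groups were rooted in field soil, were well watered, settled for 4 d in cabinet days of 32 °C and nights of 25 °C, and then met days of 42 °C at 67% relative humidity with nights of 25 °C at 40%. The remaining 6 arrays, 3 per cultivar, are controls kept at 32 °C by day, and they serve here to show the same cultivar difference without the heat. They also enter the estimate of error behind the tests at 42 °C. Each array carries RNA of an expanded leaf, the third youngest, from plants at the first square stage, when flower buds first show. The labels do not give the time spent at 42 °C before sampling. The labels name leaf samples and do not say that each came from its own plant, so the spread behind the p-values may be technical.

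Upland cotton is a tetraploid that carries near-identical copies of most genes, so a probe set can read several copies at once, and a short-oligonucleotide array reads transcript amount and probe match together. Leaves under heat usually adjust protein folding, membrane lipids, antioxidant enzymes and hormone signals such as ethylene, and the photosynthetic enzyme Rubisco loses activity as its helper Rubisco activase fails at high temperature.

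On each array the deposited MAS5 signals had a trimmed mean of about 500, the target to which the arrays had been scaled, so differences are relative to the bulk of the transcripts. Across probe sets, log2 values of 2 arrays at 42 °C correlated at 0.914 to 0.968 within a cultivar (6 pairs) and at 0.896 to 0.963 between cultivars (9 pairs), ranges that overlap nearly whole. One array stood apart from the others at 42 °C. On replicate 3 of Sicala 45 the lowest signal was 1.09, against 0.199 to 0.25 on the other 5 arrays, the 25th percentile was 31.4 against 19.9 to 23.6, and the highest of 23 control probe sets for RNA that cotton leaves do not contain (taken here as negative controls) read 96.5 against 24.9 to 58.6. Calls that were lost or gained without this array are given with and without it. The 3′/5′ signal ratio of the ubiquitin gene ubq11, a measure of RNA integrity, was 6.39, 24.6 and 11.2 on the Sicala 45 arrays and 7.99, 41.5 and 13.4 on the Sicot 53 arrays at 42 °C, so replicate 2 was the highest in each cultivar. Precision is limited by there being 3 arrays a group. In a whole leaf, fewer cells of a type and less RNA per cell cannot be told apart.

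Few transcripts passed the test of a difference between the heated cultivars. Those that did differed strongly, in part because the threshold favours large differences. Of 16820 probe sets tested, 18 (0.107%) passed the threshold of a Benjamini-Hochberg adjusted p under 0.05 in limma, 10 of them higher in Sicot 53 (0.0595% of those tested) and 8 lower (0.0476%). Their differences ran from 2.73-fold to 46.6-fold with a median of 11.1-fold, on the scale of log2(signal + 16), which understates the change of dim probe sets. Of the 18, 17 differed at least 4-fold and 10 at least 10-fold. These sizes follow in part from the threshold. The call nearest to it, GhiAffx.24025.1.S1_at, had a limma unadjusted p of 5.12e-05. At such a p a probe set of usual error passes only with a large difference, so smaller differences could hardly be called. In all 18 the 3 arrays of one cultivar lay clear of the 3 of the other, which held for 395 probe sets higher in Sicot 53 (2.35% of those tested) and 645 lower (3.83%). That separation nearly follows from the selection of the 18 on these same arrays and adds no support. All 18 are unnamed here, since the probe annotation used lists no gene symbol for them, and so they are given by probe set ID without a role, first those lower in Sicot 53 and then those higher.

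**Figure D1:**
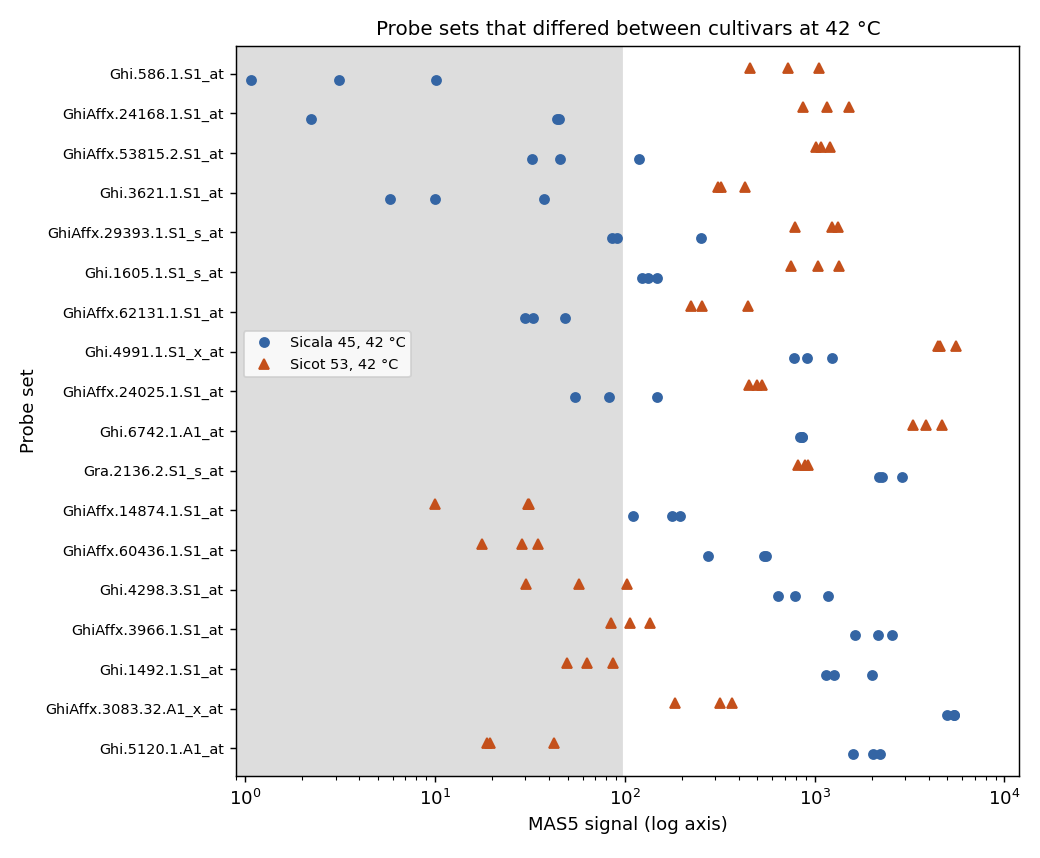
MAS5 signal (horizontal log axis) of the 18 probe sets that passed the threshold at 42 °C, 1 row per probe set, with 3 circles for the Sicala 45 arrays and 3 triangles for the Sicot 53 arrays. The grey area reaches up to 96.5, the highest negative control on any array at 42 °C, and in every row the circles and triangles do not overlap.

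On the log2(signal + 16) scale the largest difference among the 18 was in Ghi.5120.1.A1_at, a rank that depends on the pseudocount: with 1 in place of 16 it had -6.21 and Ghi.586.1.S1_at +7.27. Its signals were 1591, 2208 and 2031 in Sicala 45 and 18.8, 42.3 and 19.5 in Sicot 53. All 3 Sicala 45 arrays were bright, while 2 of the 3 Sicot 53 arrays were within the range of the negative controls. The probe set was 46.6-fold lower in Sicot 53 (log2 difference -5.54 ± 0.36 SE, limma adjusted p = 1.47e-05). GhiAffx.3083.32.A1_x_at, the brightest of those lower in Sicot 53, read 5446, 4962 and 5394 in Sicala 45 and 365, 317 and 184 in Sicot 53. Its groups were far apart, and Sicot 53 still read above the negative controls on all 3 arrays. It was 17.9-fold lower (-4.17 ± 0.25, limma adjusted p = 1.47e-05).

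Ghi.1492.1.S1_at read 2008, 1142 and 1270 in Sicala 45 and 86.3, 49.9 and 63.2 in Sicot 53. Replicate 1 was the highest of its group in both cultivars, and no Sicot 53 array came near a Sicala 45 array. The difference was 17.8-fold (log2 -4.16 ± 0.29 SE, limma adjusted p = 2.9e-05). GhiAffx.3966.1.S1_at read 2553, 2158 and 1635 in Sicala 45 against 136, 84.5 and 107 in Sicot 53, which made it 17.0-fold lower (-4.09 ± 0.30). The groups did not overlap, and the dimmer cultivar again lay above the negative controls.

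The other probe sets lower in Sicot 53 were dimmer or smaller in their difference. Ghi.4298.3.S1_at read 641, 786 and 1183 in Sicala 45 and 57.1, 102 and 30.2 in Sicot 53, 11.6-fold lower (log2 -3.54 ± 0.34 SE). GhiAffx.60436.1.S1_at read 541, 275 and 553 against 34.96, 28.7 and 17.7, 10.6-fold lower (-3.41 ± 0.39). In both, 1 of the 3 Sicot 53 arrays lay above the negative controls of its array. GhiAffx.14874.1.S1_at was the dimmest, at 111, 197 and 178 in Sicala 45 and 31.3, 10.1 and 31.0 in Sicot 53, with all 3 Sicot 53 arrays in the negative-control range (4.49-fold lower, -2.17 ± 0.33, limma adjusted p = 0.0219). Gra.2136.2.S1_s_at had the smallest difference of the 18 on this scale. It was clearly present in both cultivars, at 2874, 2254 and 2189 in Sicala 45 and 889, 919 and 821 in Sicot 53, and was 2.73-fold lower (-1.45 ± 0.17, limma adjusted p = 0.00209).

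In the other direction, Ghi.586.1.S1_at read 1.08, 3.14 and 10.2 in Sicala 45 and 1052, 459 and 720 in Sicot 53. None of the Sicala 45 arrays exceeded the negative controls, and all 3 Sicot 53 arrays did. The probe set was 35.2-fold higher in Sicot 53 (log2 difference +5.14 ± 0.33 SE, limma adjusted p = 1.47e-05). GhiAffx.24168.1.S1_at had the same pattern, at 2.23, 45.1 and 43.7 in Sicala 45 and 1516, 1162 and 870 in Sicot 53 (28.9-fold higher, +4.85 ± 0.45, limma adjusted p = 0.00032). Its replicate 1 of Sicala 45 was far below the other 2, though all 3 were within the negative-control range. Against so dim a group the size of a fold depends on the pseudocount: over the pseudocounts 1 and 64 and the other settings run, Ghi.586.1.S1_at ranged from +3.49 to +7.27 and GhiAffx.24168.1.S1_at from +3.73 to +5.94.

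GhiAffx.53815.2.S1_at read 32.4, 45.9 and 119 in Sicala 45 and 1208, 1013 and 1076 in Sicot 53. Replicate 3, the array that stood apart, was the 1 Sicala 45 array above its negative controls. The probe set was 15.02-fold higher in Sicot 53 (log2 +3.91 ± 0.32 SE, limma adjusted p = 8.12e-05). Ghi.3621.1.S1_at read 9.97, 37.5 and 5.83 against 432, 320.5 and 309 (11.7-fold higher, +3.55 ± 0.35). GhiAffx.62131.1.S1_at read 29.8, 48.5 and 33.0 against 222, 446 and 256 (5.91-fold higher, +2.56 ± 0.27). In both, Sicala 45 gave no signal beyond the negative controls on any of its 3 arrays.

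Some probe sets were measured well in both cultivars or nearly so, which makes their folds less dependent on the pseudocount. Ghi.6742.1.A1_at read 857, 856 and 842 in Sicala 45, a narrow group, and 3883, 4697 and 3319 in Sicot 53 (4.54-fold higher, log2 +2.18 ± 0.17 SE, limma adjusted p = 4.65e-05). Ghi.4991.1.S1_x_at, the brightest of those higher in Sicot 53, read 777, 1238 and 916 against 4572, 5584 and 4449.6 (4.98-fold higher, +2.32 ± 0.22). Ghi.1605.1.S1_s_at read 124, 132 and 148 against 1048, 1346 and 749 (6.88-fold higher, +2.78 ± 0.29). The Sicot 53 arrays of the last were more spread than its Sicala 45 arrays, but the groups stayed well apart. GhiAffx.29393.1.S1_s_at read 91.2, 252 and 86.1 against 1238, 1336 and 787, with replicate 2 of Sicala 45 the highest of its group and replicate 3 within the negative-control range (7.74-fold higher, +2.95 ± 0.44, limma adjusted p = 0.0218).

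GhiAffx.24025.1.S1_at was nearest to the threshold from inside, at 54.4, 148 and 83.0 in Sicala 45 and 450.4, 498 and 529.9 in Sicot 53 (4.85-fold higher, log2 +2.28 ± 0.37 SE, limma adjusted p = 0.0479). Its groups did not overlap, but its call was lost in 16 of 25 other settings, with adjusted p up to 0.223. GhiAffx.14874.1.S1_at lost its call in 9 of 24 settings (up to 0.363) and GhiAffx.29393.1.S1_s_at in 8 of 25 (up to 0.15), while 12 of the 18 passed in all 25. Without replicate 3 of Sicala 45 at 42 °C these 3 calls were lost, with GhiAffx.24025.1.S1_at at +2.24 (limma adjusted p = 0.203), GhiAffx.14874.1.S1_at at -2.09 (limma adjusted p = 0.15) and GhiAffx.29393.1.S1_s_at at +2.71 (limma adjusted p = 0.15). The same 3 calls were also lost when replicate 1 or replicate 2 of Sicot 53 at 42 °C was left out, so replicate 3 of Sicala 45 was not particular in this. All 18 kept their direction in every setting in which they were tested.

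The brighter cultivar of each of the 18 lay above the highest negative control on all 3 of its arrays, and its signals fell between percentiles 53.0 and 97.2 of the array. The dimmer cultivar lay within the negative-control range on all 3 arrays in 5 of the 18, on 1 or 2 arrays in 6, and on none in 7. By the ending of their IDs, 13 of the 18 are _at sets, 3 are _s_at sets and 2 are _x_at sets, of which the last 2 kinds can match several related transcripts. Among all tested probe sets the shares of these endings were 50.4%, 40.7% and 7.22%.

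Other probe sets with the same ID stem as a member give a partial second reading, although a shared stem does not show that they read the same transcript. Of the 18, 11 had a stem of their own. GhiAffx.53815.2.A1_at, the partner of GhiAffx.53815.2.S1_at, read 26.3, 20.5 and 21.4 in Sicala 45 and 122, 71.3 and 113 in Sicot 53, groups that did not overlap (log2 difference +1.58 ± 0.28 SE, limma adjusted p = 0.0727). Gra.2136.2.A1_at read 75.0, 90.9 and 115 against 20.3, 44.9 and 30.7, also without overlap (-1.21, limma adjusted p = 0.525). Both of these had the sign of their member and neither passed the threshold. Ghi.4991.1.A1_at had overlapping groups, at 26.1, 95.2 and 25.0 against 59.7, 72.2 and 84.3 (+0.60). Another 3 partners fell below the filter and were not tested. The partner of Ghi.4298.3.S1_at had -1.02 and that of Ghi.3621.1.S1_at +0.30, each with the sign of its member, while GhiAffx.29393.1.A1_x_at had -0.07 against +2.95 for GhiAffx.29393.1.S1_s_at. The stem of GhiAffx.3083.32.A1_x_at holds 23 other probe sets, of which 22 were tested and 0 passed, with differences of -0.80 to +0.78 and limma unadjusted p of 0.099 or more. The member itself, at -4.17, lay far outside that range.

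The same cultivar contrast at 32 °C uses the other 6 arrays, and so gives a second measurement of each member in other leaves. All 18 had the same sign there and an unadjusted limma p under 0.05, a level that 2.13% of all tested probe sets reached at 32 °C, and 15 of them passed the adjusted threshold. The p-values at both temperatures use 1 estimate of error for each probe set, so a low estimate that helped a member to pass at 42 °C also lowers its p at 32 °C. At 32 °C 18 of 16820 probe sets passed in all (0.107%), so the shared 15 are 83.3% of each list. The cultivars were apart at 32 °C in all 18, against 7.17% of all tested probe sets. In all 18 the cultivars were also apart over the 12 arrays as one set, which held for 64 tested probe sets (0.381%). That set includes the 6 arrays on which the 18 were selected. Of the other 16802 probe sets, 48.6% had the same sign at both temperatures. Across the 16820 probe sets, which share the scaling of their arrays, the differences at 42 and 32 °C correlated at r = 0.178 and rho = -0.01, and at r = 0.0848 without the 18.

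**Figure D2:**
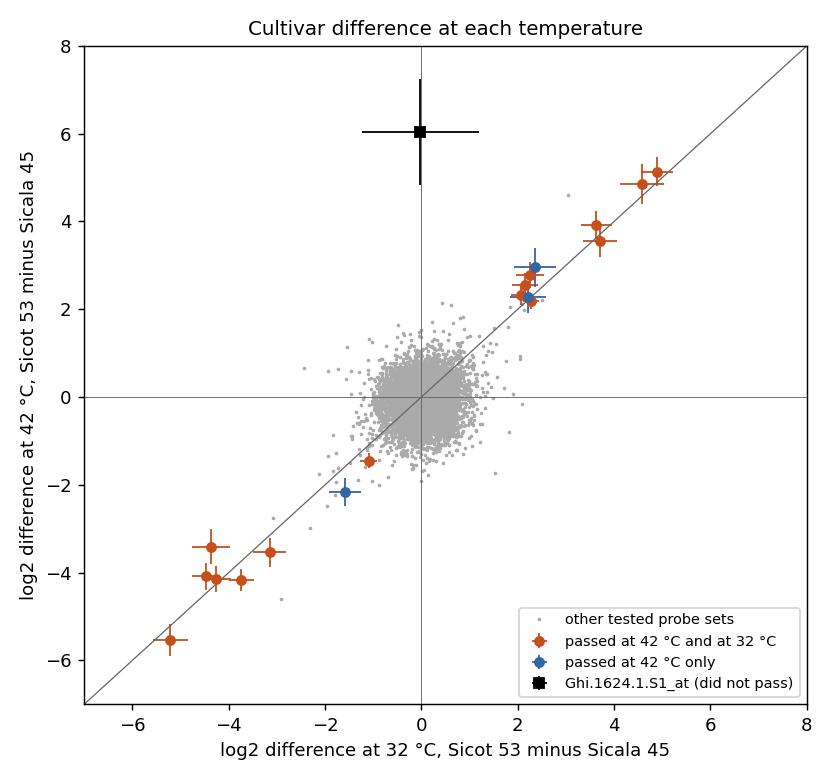
Difference Sicot 53 minus Sicala 45 (log2 of signal + 16) at 32 °C (horizontal) and at 42 °C (vertical), 1 point per tested probe set, with SE bars on the 18 that passed at 42 °C and the line of equal difference. The 18 lie along that line with 15 of them past the threshold at 32 °C too, and Ghi.1624.1.S1_at, which did not pass, lies at +6.04 at 42 °C and -0.02 at 32 °C.

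For Ghi.5120.1.A1_at the 32 °C signals were 972, 814 and 1731 in Sicala 45 and 21.6, 24.0 and 2.70 in Sicot 53, a difference of -5.21 ± 0.36 SE in log2. For Ghi.586.1.S1_at they were 2.37, 15.9 and 4.40 in Sicala 45 and 688, 667 and 640.3 in Sicot 53, a difference of +4.90 ± 0.33. The cultivar that was dim at 42 °C was thus dim at 32 °C as well. Ghi.6742.1.A1_at read 474, 515 and 497 against 2565, 2398 and 2446 (+2.28 ± 0.17), and both cultivars read lower there than at 42 °C. Averaged over cultivars its heat change passed the threshold (limma adjusted p = 0.00361), which made 1 of the 18, where 8.8% of all tested probe sets passed that test. By cultivar that change was +0.76 in Sicala 45 (limma adjusted p = 0.0413) and +0.67 in Sicot 53 (limma adjusted p = 0.0842).

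The 3 members that passed at 42 °C and not at 32 °C were GhiAffx.29393.1.S1_s_at, GhiAffx.14874.1.S1_at and GhiAffx.24025.1.S1_at. At 32 °C GhiAffx.29393.1.S1_s_at read 196, 81.3 and 157 in Sicala 45 and 765, 483 and 1205 in Sicot 53 (log2 +2.35, limma adjusted p = 0.129). GhiAffx.14874.1.S1_at read 216, 135 and 128 against 35.2, 46.3 and 42.2 (-1.59, limma adjusted p = 0.245), and GhiAffx.24025.1.S1_at 67.4, 49.7 and 167 against 437, 418 and 488 (+2.21, limma adjusted p = 0.0582). Their groups were apart at 32 °C too, and the test of the difference between temperatures called none of them. That test, the cultivar difference at 42 °C minus that at 32 °C, called 0 of 16820 probe sets (0%) in limma, with 321 at an unadjusted p under 0.05. Over the 18 it gave -0.58 to +0.96 in log2, every 95% interval included 0, and the smallest unadjusted p was 0.11 (limma). The intervals were wide: for GhiAffx.60436.1.S1_at, at +0.96, the interval ran from -0.25 to +2.17, and for Ghi.6742.1.A1_at, at -0.10, from -0.61 to +0.42.

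Just past the threshold lay 6 probe sets with limma adjusted p of 0.0547 to 0.0727, given as values. Ghi.5776.1.S1_at read 201, 270 and 248 in Sicala 45 and 74.8, 28.5 and 7.15 in Sicot 53 (log2 -2.48 ± 0.42 SE). GhiAffx.24953.1.S1_x_at read 2496, 2492 and 2089 against 6568, 4634 and 5560 (+1.23 ± 0.21), and GhiAffx.7944.1.S1_at 183, 187 and 153 against 23.6, 53.2 and 48.6 (-1.76 ± 0.31). The last of these and GhiAffx.24953.1.S1_x_at passed at 32 °C (-2.14 and +1.42, limma adjusted p = 0.0177 for each). Another, GhiAffx.53815.2.A1_at, is the stem partner given above. Ghi.8001.1.S1_x_at, the third that passed at 32 °C alone, had -1.34 at 42 °C (limma adjusted p = 0.424) and -1.93 at 32 °C.

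In 2 of the 6 the value at 32 °C was much smaller. GhiAffx.47743.1.S1_x_at read 953, 1186 and 857 in Sicala 45 and 284, 226 and 303 in Sicot 53 at 42 °C, a difference of -1.82 ± 0.31 SE in log2. At 32 °C it read 338, 364 and 810.1 against 219, 335 and 299, a difference of -0.70. The 42 °C groups were apart, and at 32 °C the cultivars nearly met, with Sicala 45 replicate 1 just above the highest Sicot 53 array. Ghi.864.1.S1_s_at read 223, 288 and 282 against 639, 667 and 463 at 42 °C (+1.10 ± 0.20) and 391, 415 and 371 against 514, 480.5 and 531 at 32 °C (+0.36). The change of the difference was -1.12 and +0.74, with 95% intervals from -2.07 to -0.17 and from +0.14 to +1.34 that are not adjusted for the number of probe sets, and adjusted p of 0.9999 in limma.

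A difference of 4-fold or more without a call was found in 12 probe sets. The 4 largest are given here as values, and were chosen after their values were seen. In 11 of the 12 the 3 arrays of each cultivar were apart at 42 °C. Among all tested probe sets this held for 2.35% (higher in Sicot 53) and 3.83% (lower). That separation follows in large part from choosing large differences on these same arrays and adds no support. Arrays within a group were often uneven, at 42 °C or at 32 °C. Ghi.1624.1.S1_at had the largest difference of all tested probe sets, +6.04 ± 1.21 SE in log2 (limma adjusted p = 0.164). At 42 °C it read 4.23, 35.6 and 2142 in Sicala 45 and 7134, 10951 and 8179 in Sicot 53. At 32 °C it read 3990, 5437 and 6058 in Sicala 45 and 3428, 6650 and 5542 in Sicot 53. The transcript was thus bright on 10 of the 12 arrays, and dim on replicates 1 and 2 of Sicala 45 at 42 °C. Replicate 3 of that group, the array that stood apart, decides the test: without it the cultivar difference was +8.06 (limma adjusted p = 6.9e-06) and its change between temperatures +8.08 (limma adjusted p = 0.000193, in place of 0.9999), the 1 probe set that passed that test in any fit that left out an array.

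**Figure D3:**
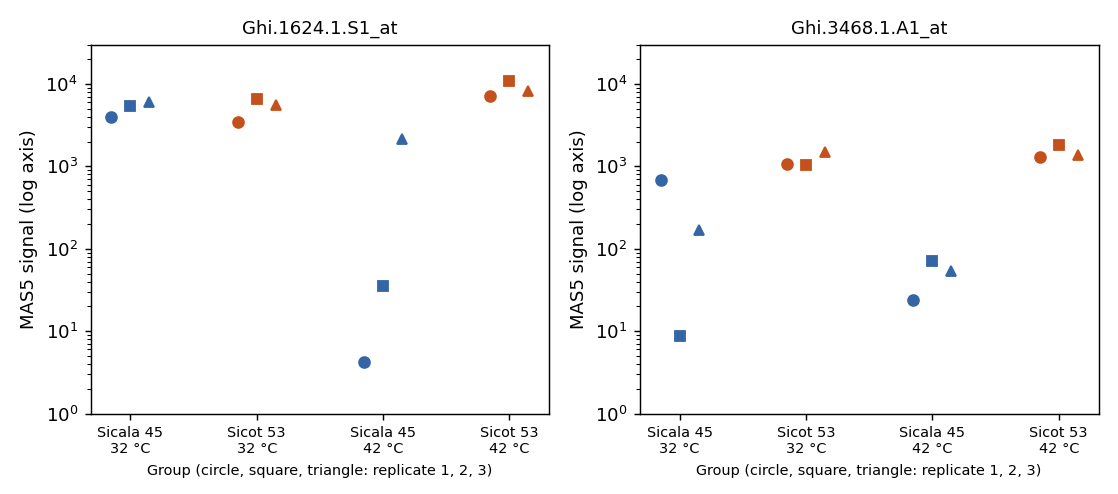
MAS5 signal (vertical log axis) of Ghi.1624.1.S1_at (left) and Ghi.3468.1.A1_at (right) on each array, by group, with the circle, square and triangle for replicates 1, 2 and 3. On the left replicates 1 and 2 of Sicala 45 at 42 °C, at 4.23 and 35.6, lie far below every other array, and on the right the Sicala 45 arrays spread widely at 32 °C, from 8.79 to 675.

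Ghi.3468.1.A1_at read 23.9, 71.5 and 53.4 in Sicala 45 and 1317, 1830 and 1382 in Sicot 53 at 42 °C (log2 +4.60 ± 0.85 SE, limma adjusted p = 0.094). At 32 °C its Sicala 45 arrays were spread over 675, 8.79 and 170, while Sicot 53 read 1072, 1049.9 and 1508 (+3.04). The large SE goes with that spread at 32 °C, since all 4 groups share 1 estimate of error. Ghi.359.1.S1_at read 335, 1543 and 966 against 1.54, 33.4 and 27.5 (-4.60 ± 0.98), and Ghi.1482.1.S1_at 2929, 1190 and 1199 against 257, 83.8 and 297 (-2.99 ± 0.67). In both, every Sicala 45 array was above every Sicot 53 array at 42 °C and the 32 °C difference had the same sign, at -2.91 and -2.30. Of the 12, 7 were higher and 5 lower in Sicot 53 at 42 °C. The sign was the same at 32 °C in 11, against 48.6% of the tested probe sets outside the 18. None of the 12 passed the threshold at 32 °C.

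Among genes with a name the heated cultivars gave no call. Names were held for 258 of the tested probe sets and 0 passed. Over all tested probe sets 0.107% passed, a share too small to expect a call among 258. At an unadjusted limma p under 0.05, 4 of the named were higher and 3 lower in Sicot 53 (2.71% together). Over all tested probe sets the shares at that level were 1.1% higher and 1.84% lower (2.94% together), so the genes below are given as values. The largest of the named differences was in EXP (GhiAffx.26845.1.S1_at, LOC107891056), an expansin, a protein that loosens cell walls. It read 60.4, 285 and 629.5 in Sicala 45 and 11.5, 36.4 and 17.7 in Sicot 53 (log2 -2.75 ± 0.67 SE, limma adjusted p = 0.503), with a wide spread within Sicala 45 and no overlap between cultivars. At 32 °C it read 151, 317 and 464 against 6.42, 20.2 and 37.4 (-3.09 ± 0.67), again without overlap. Without replicate 1 of Sicala 45 at 42 °C the difference passed (-3.60, limma adjusted p = 0.0227). Another probe set of that locus, Ghi.704.1.A1_s_at, had +0.13.

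ACS (Ghi.23.4.A1_at, LOC107923295) and ACS3 (Ghi.5451.1.S1_at, LOC107947061) carry the name of ACC synthases, enzymes of ethylene synthesis, and were placed by name alone. ACS read 27.8, 26.2 and 6.23 in Sicala 45 and 279, 41.8 and 62.5 in Sicot 53, with every Sicala 45 array in the negative-control range and replicate 1 of Sicot 53 far above its fellows (log2 +1.68 ± 0.53 SE, limma unadjusted p = 0.00771, adjusted p = 0.9999). ACS3 read 40.3, 97.5 and 6.11 against 85.6, 139.8 and 80.6, groups that overlap (+1.14 ± 0.52, limma unadjusted p = 0.0485). The brightest tested probe set with such a name, ACS1 (GhiAffx.56172.1.S1_s_at), had +0.02 ± 0.21. Its mean signal was 2506 in Sicala 45 and 2546 in Sicot 53. MPK3 (Ghi.7954.1.S1_s_at), a mitogen-activated protein kinase of stress and defence signalling, read 335, 241 and 236 against 555, 395 and 652, without overlap (+0.93 ± 0.38, limma unadjusted p = 0.0322). Of the other probe sets of its locus, LOC107959059, Ghi.7954.2.S1_at had +0.72 ± 0.61, Ghi.6088.1.S1_s_at +0.11 ± 0.43 and Ghi.6088.2.A1_s_at +0.0028 ± 0.35. A further probe set named MPK3 at another locus, Ghi.757.1.S1_x_at, had +0.02 ± 0.19. GRPL1 (Ghi.4598.3.A1_at) read 69.5, 116 and 93.5 against 167, 262 and 159.7, also without overlap (+0.95 ± 0.34, limma unadjusted p = 0.0167). At 32 °C its difference had the opposite sign, -0.55, and the change between temperatures was +1.503 with an unadjusted 95% interval from +0.45 to +2.56 and a limma adjusted p of 0.9999.

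On the lower side, CelA1 (Ghi.8461.1.A1_at), a catalytic subunit of cellulose synthase, read 69.9, 70.3 and 169 in Sicala 45 and 43.1, 32.6 and 53.0 in Sicot 53 (log2 -0.93 ± 0.37 SE, limma unadjusted p = 0.0272). The arrays did not overlap, and replicate 3 of Sicala 45 was the highest. Without it the difference of Ghi.8461.1.A1_at was -0.56. At 32 °C, with all arrays, the difference of that probe set was +0.05. A brighter probe set of the same locus, Ghi.1151.1.A1_at, had -0.69 ± 0.49 at 42 °C (limma unadjusted p = 0.183). MADS-3 (Ghi.1182.1.S1_s_at), a MADS-box transcription factor, read 410, 298 and 299.5 against 178, 177 and 213, without overlap (-0.77 ± 0.26, limma unadjusted p = 0.0111). Its difference at 32 °C was close to that, at -0.67. No named gene among these passed the adjusted threshold.

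The named genes were also grouped into 17 lists by pathway or family. None of the lists had a called member at 42 °C, where 0.107% of all tested probe sets were called, which is less than 1 call in lists of 2 to 34 probe sets. Each list is therefore described by its counts and median, with probe sets of the same gene counted separately. Over all tested probe sets 9103 differences were negative and 7717 positive, with a median of -0.03. The sign of a list's median depended on the scaling of the arrays in 12 of the 17. Median centring, which moved the median of all tested probe sets to +0.09, turned those of 5 lists positive: transcription factors, class III peroxidases, flavonoid and lignin, antioxidant enzymes and cotton fibre. Quantile normalization turned that of the flavonoid and lignin list. The medians of the cell wall, hormone, sucrose synthase, small GTPase and seed lists were negative under every scaling run.

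Cell wall genes had 21 negative and 10 positive differences among 31 probe sets, with a median of -0.15 and a range from -2.75 to +0.25. Besides EXP and CelA1, both probe sets of FLA6, a fasciclin-like protein of the cell surface, had negative values (-1.23 ± 0.60 and -0.84 ± 0.44), as did CTL1 (Ghi.4741.1.S1_s_at), a chitinase-like protein (-0.72). All 3 sucrose synthases, which split sucrose for use in the cell, had negative values: SusA1 had -0.83 ± 0.66, susC -0.74 ± 0.64 and Sus1 -0.12 ± 0.31, none with an unadjusted p under 0.05.

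**Figure D4:**
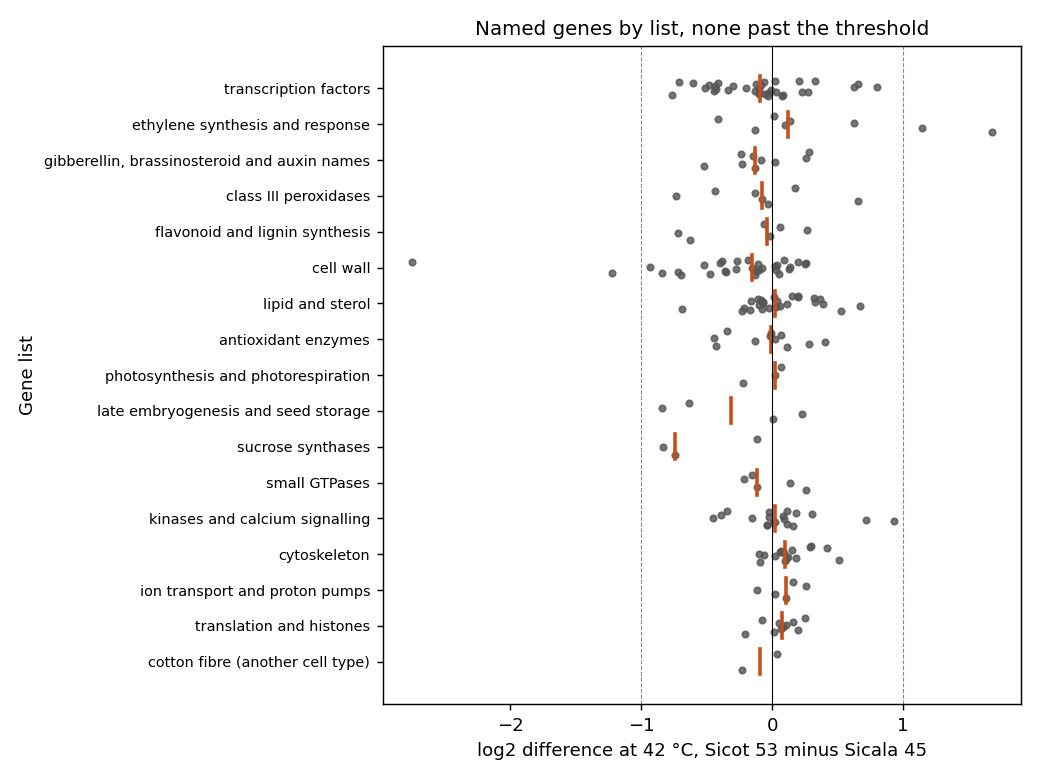
Difference Sicot 53 minus Sicala 45 at 42 °C (log2 of signal + 16) of each named probe set, by gene list, with 1 point per probe set, a red bar at the median of the list and dashed lines at -1 and +1. None of the points passed the threshold, and nearly all lie within the dashed lines, with EXP at -2.75 the farthest out.

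Transcription factors had 23 negative and 11 positive differences among 34 probe sets (median -0.09, range -0.77 to +0.80), a majority that turned to 14 negative and 20 positive under median centring (median +0.02) and was 19 and 15 under quantile normalization. Of the families that respond to stress, WRKY (Ghi.9192.1.S1_s_at) had +0.65 ± 0.37, and the NAC-domain factors NAC4 (Ghi.7907.1.S1_s_at) and NAC7 (GhiAffx.20354.1.S1_at) had -0.51 ± 0.38 and -0.60 ± 0.45. Their limma unadjusted p was 0.105, 0.202 and 0.209. Another probe set of the NAC4 locus, the brighter Ghi.7907.2.A1_at, had -0.20 ± 0.33, and another of the NAC7 locus, Ghi.3574.1.S1_s_at, had -0.03 ± 0.33. The 8 ethylene probe sets had 6 positive values and a median of +0.12, with the ACC oxidase ACO1 (Ghi.7921.1.S1_x_at) at +0.62 ± 0.67, the response factor ERF8 at -0.41 ± 0.59 and, after these, values within 0.14 of 0. Kinases and calcium signalling genes had 11 positive and 8 negative values (19 probe sets, median +0.02), and CBL3 (Ghi.8132.1.S1_at), a calcineurin B-like calcium sensor, had -0.45 ± 0.24.

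Of the enzymes that remove reactive oxygen, 11 probe sets had a median of -0.01 and 7 had a 95% interval within 1 log2 unit of 0. The stromal ascorbate peroxidase sAPX had -0.44 ± 0.32, the iron superoxide dismutase FeSOD -0.35 ± 0.25 and gAPX +0.28 ± 0.26. Class III peroxidases had 5 negative and 2 positive values among 7 (median -0.08, with 3 and 4 under median centring), from pod5 at -0.74 ± 0.47 to pod10 at +0.66 ± 0.58. The 6 flavonoid and lignin probe sets had a median of -0.04, with CCoAMOT2 at -0.72 ± 0.44 and CHS2, a chalcone synthase, at -0.63 ± 0.48. The interval of only 1 of these 6 lay within 1 log2 unit of 0, and those of the other 5 included a 2-fold difference in at least 1 direction.

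Lipid and sterol genes had a median of +0.02. The interval lay within 1 log2 unit of 0 in 18 of 26 probe sets (69.2%), against 58.7% of all tested probe sets. The fatty acid desaturases, which set how unsaturated membrane lipids are, had +0.52 ± 0.26 (3FAD) and +0.37 ± 0.31 (sad1). The list of gibberellin, brassinosteroid and auxin names (9 probe sets) had a median of -0.13, with DET2, a reductase of brassinosteroid synthesis, at -0.52 ± 0.34 and the names Aux6, Aux2 and Aux3 at +0.28, +0.26 and -0.23. Small GTPases (5 probe sets, median -0.12) and ion transport and proton pumps (5 probe sets, median +0.10) had values from -0.21 to +0.26 and from -0.11 to +0.26. Cytoskeleton genes had 13 positive and 3 negative values among 16 (median +0.10, highest +0.51), and translation and histone genes 8 and 2 among 10 (median +0.08, highest +0.25).

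Genes taken as markers of leaf and of other tissues gave no call between the heated cultivars, where 0.107% of all tested probe sets were called. RCA1, Rubisco activase, read 44130, 33077 and 33491 in Sicala 45 and 33455, 37803 and 40694 in Sicot 53, near the top of the array's range in both, with a difference of +0.02 ± 0.28 SE in log2. The carboxylase PEPC1 had +0.07 ± 0.27 and GOX, the glycolate oxidase of photorespiration, -0.22 ± 0.29, and the 95% intervals of all 3 lay within 1 log2 unit of 0. Fb2 and E6, genes named for cotton fibre, read 326 to 610.0 in Sicala 45 and 323 to 465 in Sicot 53 (-0.23 ± 0.29), and 689.7 to 978 against 776 to 956 (+0.04 ± 0.30). Both lay above the negative controls on every array at 42 °C, Fb2 at percentiles 66.9 to 77.5 and E6 at 80.0 to 84.3. They therefore do not set another cell type apart in these leaves. FSLTP2, another fibre name, is in the lipid list and was bright (Ghi.4648.1.S1_x_at, mean 17005 in Sicala 45 and 15494 in Sicot 53, -0.21 ± 0.28). Seed and late embryogenesis genes were uneven. Lea5-D read 1003, 2888 and 9465 against 679.5, 15566 and 2622, a wide spread within each cultivar (+0.01 ± 1.14), and MatP7 had -0.84 ± 0.47, LEGB -0.63 ± 0.44 and Lea14-A +0.23 ± 0.36.

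Of the transcripts that changed with heat, 1 was called between the cultivars at 42 °C. Averaged over cultivars, 709 probe sets were higher at 42 than at 32 °C (4.22% of those tested) and 772 lower (4.59%), in a contrast that shares all 6 arrays at 42 °C with the cultivar comparison and in which temperature cannot be told apart from the cabinet run. Of the 709 raised, 1 was called between cultivars (Ghi.6742.1.A1_at) and of the 772 lowered 0, where 0.107% of all tested probe sets were called. At an unadjusted limma p under 0.05, 6 of the raised were higher and 9 lower in Sicot 53 (2.12% together), and 21 of the lowered were higher and 10 lower (4.02%), against 2.94% of all tested probe sets. The median difference was -0.02 in the raised and +0.03 in the lowered.

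The 95% interval of the cultivar difference lay within 1 log2 unit of 0 in 525 of the 709 raised (74.0%) and 532 of the 772 lowered (68.9%), against 58.7% of all tested probe sets. Both tests use the same estimate of error, so probe sets that passed the heat test tend to have narrow intervals by that choice. Among those that changed at least 4-fold, the interval was so bounded in 10 of 68 raised (14.7%) and 2 of 21 lowered (9.52%).

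The precision of the fit, whose estimate of error uses all 12 arrays, sets what could be seen. Over all tested probe sets the 95% interval reached a median of 0.70 log2 units to either side, and for 9877 of 16820 (58.7%) it lay within 1 log2 unit of 0. A difference of 2-fold or more was estimated for 292 probe sets (1.74%) and of 4-fold or more for 29, of which 17 were called. At an unadjusted limma p under 0.05, 185 probe sets were higher and 309 lower in Sicot 53, so that 62.6% of these were lower, and 71.4% in the dimmer 50% of the probe sets. This split depended on the scaling: 43.8% were lower under quantile normalization, 37.7% under median centring and 94.8% under scaling to spiked-in RNA. Without replicate 3 of Sicala 45, the array with the raised lowest signals, 49.7% were lower. Scaling each array to its poly-A spikes, bacterial RNAs added to the sample, whose mean signals were 704, 652 and 689 in Sicala 45 and 695, 975 and 893 in Sicot 53, moved the median difference of all tested probe sets from -0.03 to -0.31 and gave 8 higher and 13 lower calls in place of 10 and 8. Under that scaling the medians of all 17 lists were negative, and 7 of them had turned from positive: the cytoskeleton, ethylene, translation, ion transport, kinase, lipid and photosynthesis lists. The signs of these lists hold only relative to the bulk of the transcripts.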

How the data were processed

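Leaf RNA of 12 samples was labelled with biotin and read on Affymetrix Cotton arrays. The authors deposited intensity values, MAS5 signals per the submitters' processing notes (version not given in the sources used here), for 24132 probe sets; each array's trimmed mean is about 500. Arrays were grouped by title into 4 groups of 3. Sets with AFFX names (103) and the dimmest 30% of the other 24029 were left out, which kept 16820. On log2(signal + 16), limma 3.58.1 in R 4.3.3 fitted the 4 groups over 12 arrays (lmFit, eBayes with intensity trend, two-sided, Benjamini-Hochberg per contrast, threshold 0.05), and the steps were tested on simulated data. Errors of differences are model SEs.

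Gene names came from the array's probe annotation through a RefSeq gene table of assembly Gossypium_hirsutum_v2.1: 697 probe sets have 1 symbol, all matched, 46 have several, 23389 have none listed, and 318 have an informative name. The 17 lists are name patterns. Probe sets given by name are every called one, named genes with an unadjusted p under 0.05 (up to 12 each way), the 4 of lowest p in each list and the 6 nearest past the threshold; any other was chosen after its values were seen. Members and lists were chosen with earlier results of these data known.

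Alternatives were pseudocounts of 1 and 64, no filter or a 50% filter, quantile normalization, median centring, spike scaling, no intensity trend, array weights, the 6 arrays compared alone, the replicate number as a block, a 3′/5′ covariate, and leaving out arrays. Python 3.11.15, pandas 2.3.3 and matplotlib 3.10.9 made tables and figures.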

Additional observations from a re-analysis of the deposited data

How the results depend on the processing

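Over 25 other settings, 12 of the 18 calls at 42 °C passed in all and none changed direction; 36 of 449 values lost the call, most of them of GhiAffx.24025.1.S1_at, GhiAffx.14874.1.S1_at and GhiAffx.29393.1.S1_s_at, the 3 nearest to the threshold. GhiAffx.62131.1.S1_at and Gra.2136.2.S1_s_at lost it only with the 6 arrays fitted alone (14 calls, 13 of them shared with the 18), and GhiAffx.60436.1.S1_at only at a pseudocount of 1. Array weights gave 30 calls at 42 °C (17 higher and 13 lower in Sicot 53), all 18 among them, and 35 at 32 °C, where the reported fit gave 18. Scaling to the spikes gave 13 lower. Leaving out each array gave 15 to 21 calls at 42 °C, and 0 to 1 for the change of the cultivar difference between temperatures; without replicate 3 of Sicala 45 at 42 °C, 15 of 16 calls were shared with the 18. Same-numbered arrays of the cultivars had deviations correlated at 0.413, 0.385 and -0.160 at 42 °C, and at -0.121, 0.452 and 0.357 at 32 °C. Differently numbered arrays at 42 °C ran from -0.606 to 0.416. The signs were mixed, so the reported fit did not take the numbers as pairs. These values do not show that same-numbered arrays were unrelated. The replicate block gave 15 calls at 42 °C (8 higher, 7 lower), all shared, and 16 at 32 °C. Of 1759 values of other named probe sets, 29 gained a call and 18 moved by more than the spread between replicates. Depth has no counterpart on an array: in 5 of the 18 the dimmer cultivar did not exceed the negative controls, so the sizes of those folds rest on the pseudocount.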
